A study of Mus musculus with 4 samples.

Results

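The integrated stress response regulators described here are 9 genes taken by name from the 32285 features of the matrices: the transcription factors Atf4, Atf5, Ddit3, Atf3 and Cebpb, the phosphatase subunit Ppp1r15a, and the downstream genes Trib3, Chac1 and Nupr1. Transcripts of single pancreatic islet cells were counted in 4 libraries, each the only one of its group, from male mice at 8 weeks of age. The groups were mice with homozygous floxed alleles of Tet2 and Tet3 that carried Pdx1 cre (Cre-positive), mice with the same floxed alleles that did not (Cre-negative), offspring of mothers with intrauterine hyperglycemia (IHG offspring), and offspring of control mothers (control offspring). Tet2 and Tet3 encode enzymes that oxidise methylated cytosine in DNA. Both libraries of the first pair carry the floxed alleles, and Pdx1-driven Cre acts in the pancreatic epithelium, so that alpha, delta and PP cells can be recombined besides beta cells. The sources used here do not give the number of mice pooled into a library. The design sets the Cre-positive against the Cre-negative library, and the IHG offspring against the control offspring library.

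The integrated stress response begins when a kinase (PERK, GCN2, PKR or HRI) phosphorylates the translation factor eIF2α. General protein synthesis then falls while the mRNA of ATF4, and of a few others such as ATF5 and CHOP, is translated more, and ATF4 switches on genes of amino acid supply, redox balance and, with CHOP, cell death. Beta cells load their endoplasmic reticulum with proinsulin, and loss of PERK in mice destroys them. Only mRNA was measured here, so that neither eIF2α phosphorylation nor ATF4 protein enters any value.

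The promoter stretches that hold an ATF4-type motif are shown first. The 4 genes that carry the motif also have the largest ratios of the 9 in beta-like cells below. No binding was measured, and a link between motif and ratio was not tested. All 9 genes had a promoter entry in RefSeq (GRCm38.p6), running from 250 bases before to 50 bases after the start site. The core TGATGNAA, to which dimers of ATF4 with a C/EBP protein bind, was searched on both strands and was found in 4 of the 9, namely Atf3, Trib3, Chac1 and Nupr1, against 3.97% of 32851 such promoters. In all 4 it lies on the strand opposite to the gene and reads as its reverse complement. Capitals mark the match. Positions count from the start site. The sequences run 5′ to 3′ on the strand of the gene and were read from RefSeq for Atf3 at chr1:191183410-191183469 (minus strand, match -110 to -103), Trib3 at chr2:152344028-152344057 (minus strand, 15 to 22), Chac1 at chr2:119351023-119351082 (plus strand, -193 to -186) and Nupr1 at chr7:126625547-126625606 (minus strand, -110 to -103).
Atf3: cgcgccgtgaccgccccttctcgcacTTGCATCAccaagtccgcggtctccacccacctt
Trib3: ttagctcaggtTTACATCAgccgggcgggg
Chac1: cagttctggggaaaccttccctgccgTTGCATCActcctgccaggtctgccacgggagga
Nupr1: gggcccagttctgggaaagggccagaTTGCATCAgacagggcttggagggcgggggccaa

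The palindrome TGACGTCA, the cyclic AMP response element to which CREB and ATF proteins bind, was found in 1 of the 9, Ppp1r15a, at -12 to -5, against 1.79% of the same promoters. Its window is chr7:45526269-45526328 on the minus strand, with the match again in capitals. The AP-1 motif TGANTCA was found in Ddit3 alone among the 9, at -242, and in 7.81% of all promoters. A match is a description of these letters, and its absence from the promoters of Atf4, Atf5 and Cebpb says only that the letters are not in this window.
Ppp1r15a: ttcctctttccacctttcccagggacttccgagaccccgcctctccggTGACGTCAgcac

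On GRCm38 (GENCODE vM21) Atf4 lies at chr15:80255184-80257541, Atf3 at chr1:191170296-191218039, Ppp1r15a at chr7:45522916-45526268, Trib3 at chr2:152337422-152344032, Chac1 at chr2:119351229-119354381, Nupr1 at chr7:126623249-126630861, Atf5 at chr7:44812256-44816658, Ddit3 at chr10:127290774-127296288 and Cebpb at chr2:167688915-167690418. On the opposite strand, exons of Atf5 overlap Nup62 and Il4i1, those of Ddit3 overlap Gm4189 and Mars, those of Cebpb overlap Tmem189 and those of Ppp1r15a overlap Tulp2. On its own strand Ddit3 also overlaps a second feature of the same symbol, which had no UMI in any library. The sources used here do not give the strand setting of the counting, so that reads of such neighbours cannot be told apart from those of the 4 genes.

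The libraries held 6421 to 16459 barcodes with a median of 5334 to 7373 UMIs (unique molecular identifiers, each standing for 1 captured transcript) per barcode, and 40473 of 45709 barcodes were kept. Beta-like cells numbered 2670 in the Cre-positive, 3230 in the Cre-negative, 5876 in the IHG offspring and 10424 in the control offspring library, with median depths of 10197, 9547, 8859.5 and 5844 UMIs in the same sequence. They carried insulin in all libraries, with Ins2 between 172792 and 242473 CPM (UMIs of the gene scaled to 1000000 UMIs of the class), but markers of mature beta cells differed between the Cre libraries in both directions. Ucn3 stood at 544 CPM in Cre-positive and 158 CPM in Cre-negative beta-like cells, Slc2a2, the glucose transporter, at 273 and 616 CPM, and the transcription factors Nkx6-1 at 691 and 635 CPM and Pdx1 at 126 and 103 CPM. Tags come from the 3′ end of transcripts, so that Tet2 (33.1 CPM in Cre-positive and 46.2 CPM in Cre-negative beta-like cells) and Tet3 (26.2 and 34.3 CPM) cannot check the floxed exons. The largest share of beta-like cells lay in a different cluster in each library: cluster 1 held 74.9% of those of the Cre-positive library, cluster 3 held 87.9% of those of the Cre-negative library, cluster 5 held 41.3% of those of the IHG offspring, and cluster 0 held 50.1% of those of the control offspring. With 1 library per group no test between groups is possible, genotype or maternal exposure cannot be told apart from anything else that differed between the libraries, and every interval below is a 95% interval of counting error only.

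All 9 genes stood above the Cre-negative level in Cre-positive beta-like cells. The genes differed in size from 41.6-fold for Nupr1 to 1.51-fold for Ppp1r15a, and their summed level was 1234 CPM in Cre-positive and 340 CPM in Cre-negative beta-like cells. A gene was called higher or lower where it reached 20 CPM in at least 1 library of the pair and differed 1.5-fold or more. All 9 were called higher by this rule, as were 6.89% of the 6469 genes measured, while 20.2% were called lower. The median log2 ratio was 2.83 over the 9 genes and -0.22 over all measured genes. The 9 genes were chosen with earlier results of these data known, so these and later contrasts with all genes are descriptions only.

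Atf4, the transcription factor at the centre of the response, was at 365 CPM in Cre-positive and 146 CPM in Cre-negative beta-like cells, and at 195 CPM in IHG offspring and 212 CPM in control offspring. The Cre-positive library was 2.50-fold (2.41 to 2.58) above the Cre-negative library and the highest of the 4. Its relative Atf5, which in mouse beta cells is known to limit stress-induced death, was at 397 CPM in Cre-positive, 55.7 CPM in Cre-negative, 217 CPM in IHG offspring and 179 CPM in control offspring beta-like cells. The Cre-positive to Cre-negative ratio of Atf5 was 7.12 (6.78 to 7.48), and the Cre-negative library stood below both offspring libraries, not only below the Cre-positive one.

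Ddit3, which encodes the death-associated factor CHOP, was at 41.0 CPM in Cre-positive, 13.9 CPM in Cre-negative, 16.5 CPM in IHG offspring and 19.5 CPM in control offspring beta-like cells, and the Cre-positive library was 2.95-fold (2.65 to 3.28) above the Cre-negative one. Only the Ddit3 feature with UMIs was used, and how reads in the stretch shared with the other were assigned is not stated. Atf3, a stress and immediate early gene that acts downstream of ATF4, was at 93.4 CPM in Cre-positive, 8.34 CPM in Cre-negative, 13.8 CPM in IHG offspring and 24.3 CPM in control offspring beta-like cells. With 3017 UMIs in Cre-positive and 283 in Cre-negative cells its ratio was 11.2 (9.91 to 12.7), and the Cre-positive library was 3.85-fold above control offspring, the next in order. Cebpb, a C/EBP factor that can pair with ATF4, was at 29.4 CPM in Cre-positive, 9.72 CPM in Cre-negative, 21.4 CPM in IHG offspring and 15.5 CPM in control offspring beta-like cells, a Cre-positive to Cre-negative ratio of 3.03 (2.67 to 3.44). Its excess over the next library, IHG offspring, was 1.37-fold.

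Ppp1r15a, whose product GADD34 directs a phosphatase to eIF2α and so ends the response, varied least between the first pair: 147 CPM in Cre-positive and 97.4 CPM in Cre-negative beta-like cells, or 1.51-fold (1.44 to 1.58), which lies just past the 1.5-fold rule. It was the 1 gene whose lowest library was not the Cre-negative one, since it was at 51.9 CPM in IHG offspring and 82.6 CPM in control offspring.

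The downstream genes had the steepest ratios. Trib3, a pseudokinase that binds ATF4 and the kinase AKT, was at 28.8 CPM (929 UMIs) in Cre-positive and 1.33 CPM (45 UMIs) in Cre-negative beta-like cells, a ratio of 21.7 (16.1 to 29.9), against 6.62 CPM in IHG offspring and 4.73 CPM in control offspring. Chac1, an enzyme that degrades glutathione, was at 73.9 CPM in Cre-positive, 6.27 CPM in Cre-negative, 15.1 CPM in IHG offspring and 13.5 CPM in control offspring beta-like cells, with a ratio of 11.8 (10.2 to 13.6) in the first pair. Nupr1, a small stress-induced chromatin protein first described in the pancreas, was at 58.8 CPM in Cre-positive, 1.41 CPM in Cre-negative, 22.7 CPM in IHG offspring and 23.6 CPM in control offspring beta-like cells. Its 1900 UMIs in Cre-positive against 48 UMIs in Cre-negative cells gave 41.6-fold (31.2 to 56.6), and the 48 UMIs came from 16 of 3230 cells. Nupr1 had the largest ratio of all 6469 genes, Trib3 was 3rd, Chac1 7th, Atf3 8th and Atf5 14th.

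Against the offspring libraries the excess of the Cre-positive library was smaller for every gene but Ppp1r15a. For Nupr1 it was 2.50-fold over control offspring, the next library, for Trib3 4.34-fold and for Chac1 4.90-fold over IHG offspring, and for Atf5 1.83-fold over IHG offspring. All 9 genes were highest in the Cre-positive library, 8 of 9 were lowest in the Cre-negative library, and for these 8 the offspring libraries lay between. The ratios between the Cre libraries thus hold both a low Cre-negative level and a high Cre-positive level.

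**Figure D1:**
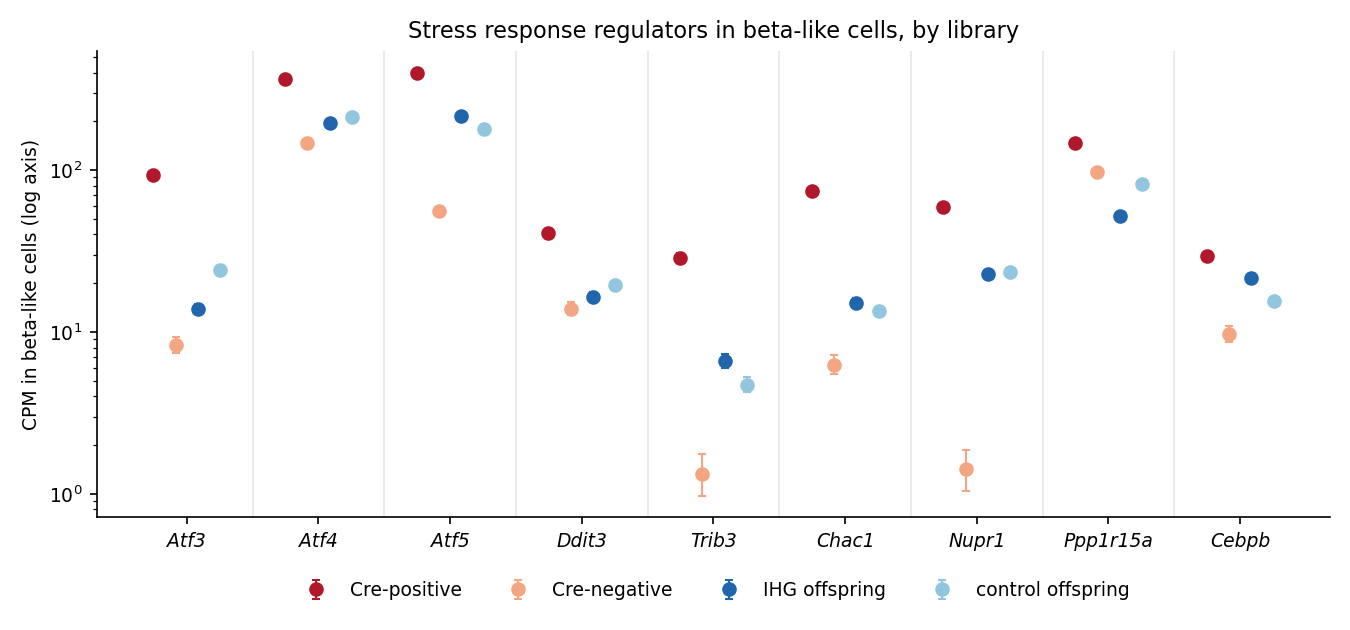
Level of each of the 9 genes in beta-like cells of the 4 libraries, as CPM on a log axis with 95% Poisson intervals of counting error; each point is 1 library. The Cre-positive library is highest for every gene, and Nupr1 is at 58.8 CPM there and at 1.41 CPM in the Cre-negative library.

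**Figure D2:**
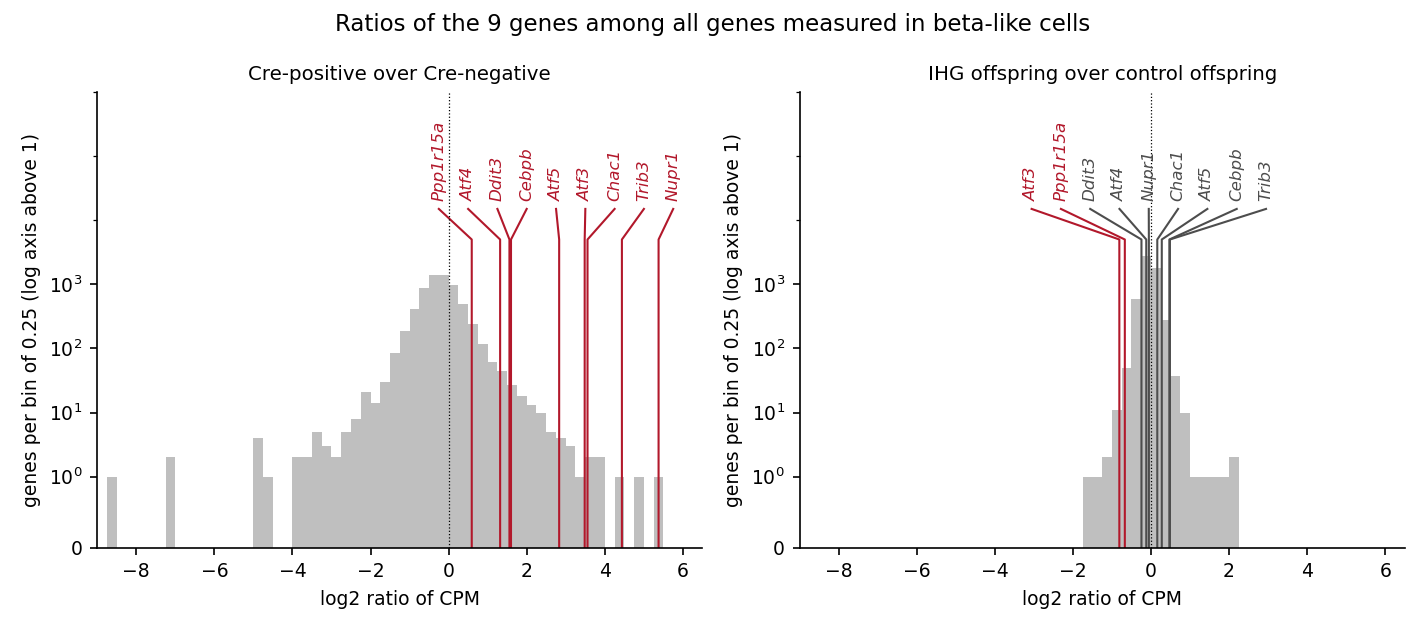
Log2 ratios of all genes measured in beta-like cells, counted in bins of 0.25 on a log axis, for Cre-positive over Cre-negative (left) and IHG offspring over control offspring (right); lines mark the 9 genes, red where they pass the 1.5-fold rule. On the left all 9 lie right of 0, and on the right Atf3 and Ppp1r15a alone are called, both lower.

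The shares of beta-like cells with a UMI followed the levels. After every cell was thinned to 2000 UMIs, Atf3 was found in 13.4% of Cre-positive beta-like cells, against 1.41% of those of the Cre-negative library. The Atf5 share was 47.5% in the Cre-positive and 7.43% in the Cre-negative library, and the Nupr1 share 9.34% and 0.128%. Without thinning the shares were 37.2% and 4.83% for Atf3, 83.2% and 21.7% for Atf5, and 30.2% and 0.495% for Nupr1. The other genes also had the larger share in the Cre-positive library at both depths. Their thinned shares ran from 5.31% (Trib3) to 50.7% (Atf4) in Cre-positive cells and from 0.288% (Trib3) to 25.1% (Atf4) in Cre-negative cells. No class in these data is known to lack these genes, so that a background share for free RNA could not be read.

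Counting genes per cell, 2 or more of the 9 were found at 2000 UMIs in 55.3% (53.3 to 57.2) of beta-like cells in the Cre-positive library and 9.22% (8.23 to 10.3) in the Cre-negative library, and in 19.7% of IHG offspring and 22.4% of control offspring cells. If each gene were found independently at its own share, 57.0% of Cre-positive cells would hold 2 or more at this depth, close to the share seen. At 5000 UMIs the share seen was 89.2% (87.9 to 90.5), below the 92.5% that independence would give. Observed over expected co-detection in the 2560 thinned Cre-positive cells ran over the 36 pairs from 0.705 for Atf3 with Cebpb (13 cells against 18.4 expected) to 1.65 for Trib3 with Nupr1 (21 cells against 12.7). Atf4 with Atf5, the pair found in most cells, was at 1.03 (638 cells against 617), while Atf5 with Trib3 reached 1.38 (89 against 64.7) and Atf5 with Nupr1 1.34 (152 against 114). Cells that held 4 or more of the genes made up 7.07% of the Cre-positive and 0.032% of the Cre-negative beta-like class.

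**Figure D3:**
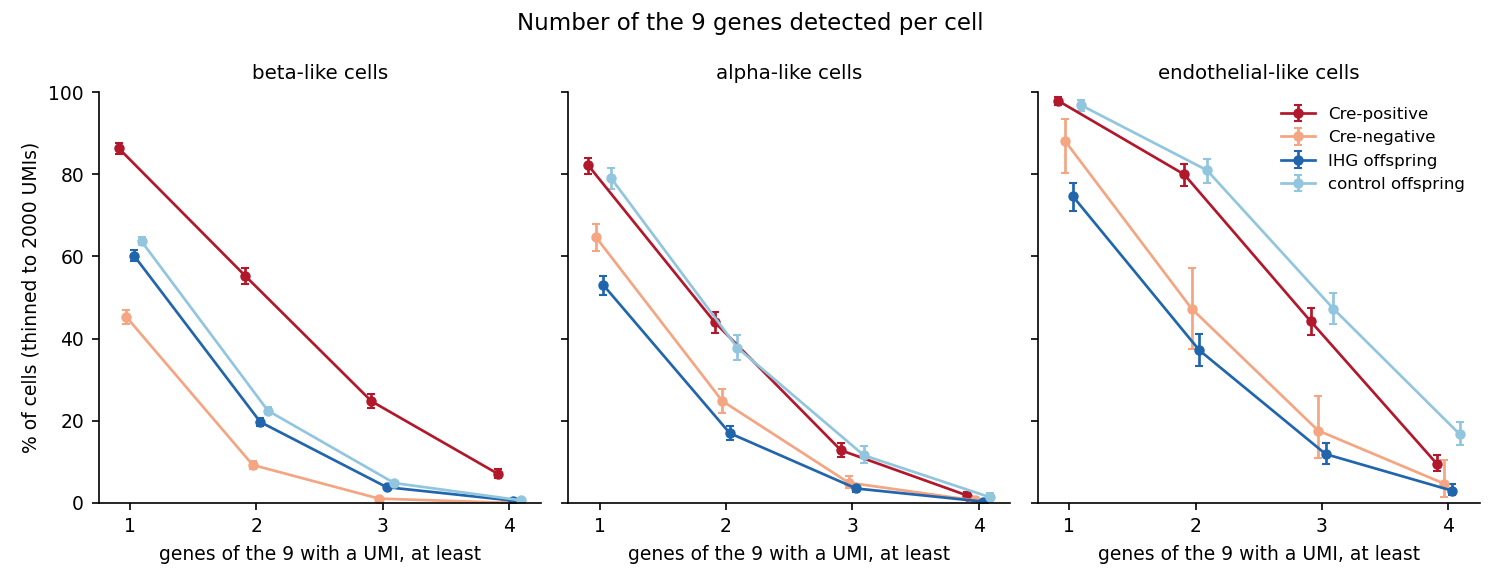
Share of cells by number of the 9 genes found, each cell thinned to 2000 UMIs, in the 4 libraries. In the Cre-positive library 86.3% of beta-like cells hold at least 1 gene, against 45.2% in the Cre-negative library.

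The ratios were also read within clusters, because the first pair of libraries hardly share one. In cluster 0, which held 121 Cre-positive and 197 Cre-negative beta-like cells and is the cluster they share most, Atf5 was at 428 CPM in Cre-positive and 252 CPM in Cre-negative cells, a ratio of 1.70 in place of 7.12. Atf5 was lowest in the main Cre-negative cluster, cluster 3, at 37.3 CPM, and in cluster 5 it was 117 CPM in Cre-negative cells, also below the 269 CPM of IHG offspring and 193 CPM of control offspring cells. Nupr1 was at 50.7 CPM in Cre-positive and 3.16 CPM in Cre-negative cells of cluster 0, Atf3 at 21.4 and 3.69 CPM, Trib3 at 28.0 and 4.74 CPM, and Chac1 at 49.4 and 22.1 CPM. Within this cluster 8 of the 9 genes differed 1.5-fold or more, and Ppp1r15a did not, at 76.1 CPM in Cre-positive and 64.3 CPM in Cre-negative cells. These levels come from few cells and carry no interval. Cebpb only just reached the 20 CPM minimum, at 20.02 CPM in Cre-positive and 9.48 CPM in Cre-negative cells. Clusters were built from all genes, these included, so that the values within them are a description. Cluster 19, led by the interferon-induced genes Oasl2 and Ifit1, held 269 Cre-positive beta-like cells, and Chac1 was 108 CPM there and 71.3 CPM in the Cre-positive cells of cluster 1.

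Cluster 1, the main Cre-positive cluster, also held 697 IHG offspring and 1727 control offspring cells. Within it Atf5 was 406 CPM in Cre-positive, 184 CPM in IHG offspring and 168 CPM in control offspring cells, and Nupr1 was 59.95, 14.9 and 21.9 CPM in the same sequence. Atf3 was 99.5 CPM in Cre-positive, 39.6 CPM in IHG offspring and 59.7 CPM in control offspring cells of the cluster, while Ppp1r15a was 153, 128 and 135 CPM. The Cre-positive cells were thus above the offspring cells for these 4 genes also inside their own main cluster, by a small margin for Ppp1r15a, but not for Cebpb, at 31.3 CPM in Cre-positive and 31.8 CPM in IHG offspring cells. Cluster 3, the main Cre-negative cluster, also held 587 IHG offspring and 270 control offspring cells. There Atf5 was 37.3 CPM in Cre-negative, 63.0 CPM in IHG offspring and 142 CPM in control offspring cells, and Nupr1 was 1.35, 4.63 and 13.9 CPM, so that the Cre-negative cells were the lowest for both genes.

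**Figure D4:**
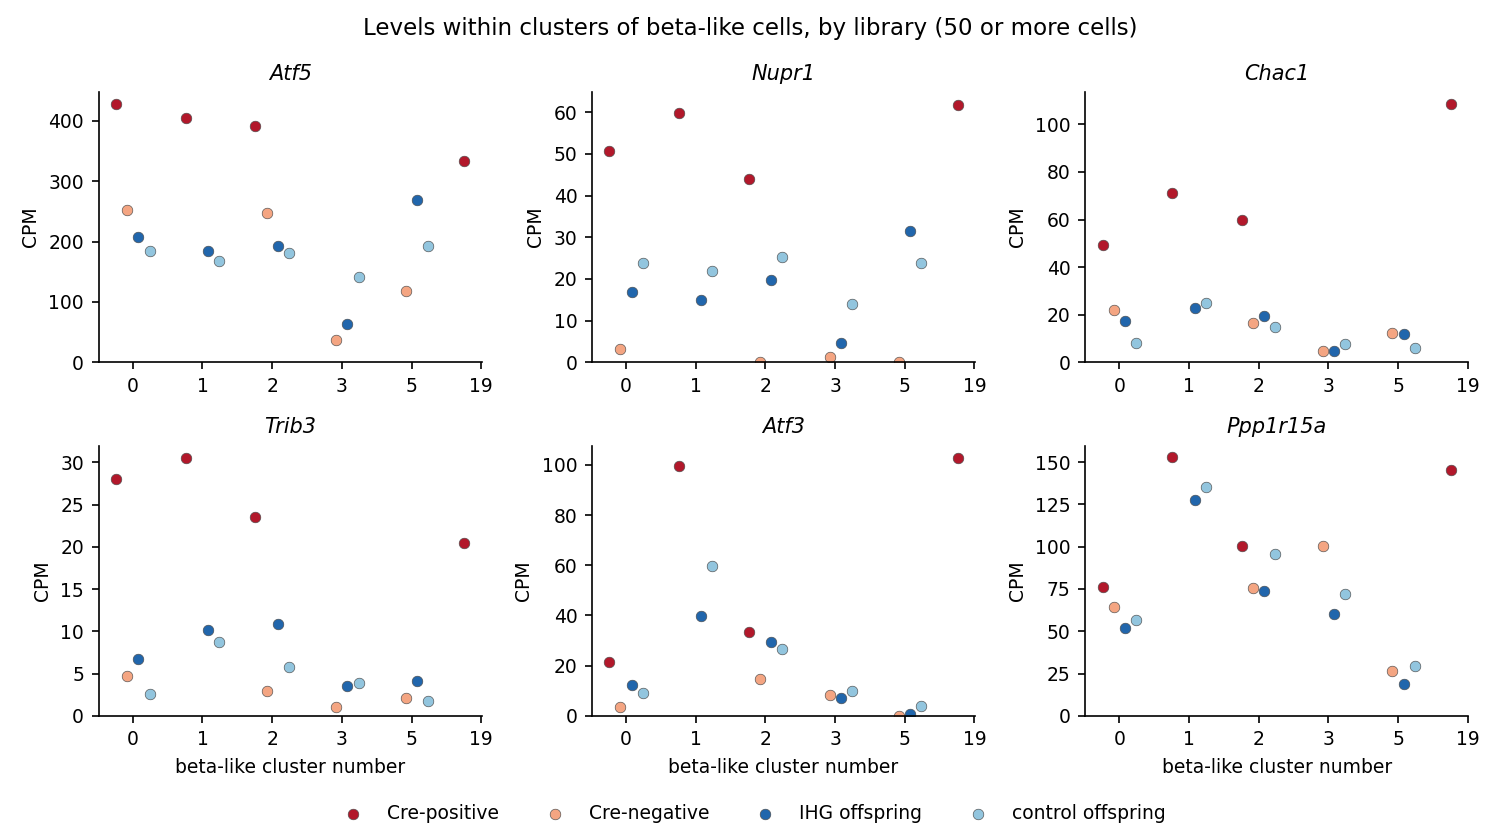
Level of Atf5, Nupr1, Chac1, Trib3, Atf3 and Ppp1r15a in beta-like clusters with at least 50 cells of a library, as CPM, by library. Atf5 in Cre-negative cells is 37.3 CPM in cluster 3 and 252 CPM in cluster 0.

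Among hormones of other islet cells, Gcg was 2423 CPM in Cre-positive and 318 CPM in Cre-negative beta-like cells, and Sst 638 and 4076 CPM. When the Cre-negative library was clustered on its own, a cluster of 687 cells took no class name. Its best marker score was PP and its second delta, and how many of its cells are beta-like here was not counted. All 9 genes were still called higher without beta-like cells in which Gcg, Sst, Ppy and Pyy together passed 1% of UMIs. The same held with each library clustered on its own.

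Genes that ATF4 is known to switch on for amino acid supply were mostly higher in Cre-positive beta-like cells. Of 14 listed enzymes of amino acid synthesis and one-carbon metabolism 8 were measured, 6 were higher and none was lower. Among all genes measured in these cells 6.89% were higher and 20.2% lower. Phgdh, the first enzyme of serine synthesis, was at 28.8 CPM in Cre-positive and 3.18 CPM in Cre-negative cells, and Asns, which makes asparagine, at 169 and 72.0 CPM. Of 4 measured amino acid transporters 3 were higher, among them Slc7a5 (124 CPM in Cre-positive and 41.3 CPM in Cre-negative cells), and of 14 measured aminoacyl-tRNA synthetases 8 were higher, led by Cars (35.7 and 11.5 CPM). Of 13 measured genes for eIF2α kinases, phosphatase and exchange factor, 2 were higher (Ppp1r15b, a constitutive partner of the same phosphatase, and Eif2s2) and the median log2 ratio was -0.05.

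Among 19 other listed targets of ATF4 and CHOP, 5 were higher and 3 lower. Herpud1, of endoplasmic reticulum protein degradation, was at 1532 CPM in Cre-positive and 418 CPM in Cre-negative cells, while Ddit4, an inhibitor of mTOR signalling often induced by ATF4, was lower: 42.8 CPM in Cre-positive and 244 CPM in Cre-negative cells. Of 25 genes of the ATF6 and IRE1 arms of the unfolded protein response, 6 were higher (Hspa5, the main chaperone, at 2939 and 1451 CPM) and 1 lower, with a median log2 ratio of 0.26. Of 5 measured genes of the mitochondrial unfolded protein response 2 were higher. Other stress genes moved in the same libraries: all 13 measured cytosolic heat shock genes were higher and 11 of 21 immediate early genes were higher, with Fosl2 at 48.6 CPM in Cre-positive and 3.27 CPM in Cre-negative cells. Heat shock and immediate early genes are known to respond to islet isolation and dissociation, and their part in the levels of the 9 genes was not tested. Their summed levels in Cre-positive beta-like cells were 18166 CPM for heat shock and 12520 CPM for immediate early genes, against 8479 and 7027 CPM in Cre-negative cells.

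Between the offspring libraries the 9 genes had similar summed levels in beta-like cells, 560 CPM in IHG offspring and 575 CPM in control offspring. Of 6 genes that reached 20 CPM, 2 were lower in IHG offspring, where 0.706% of 5523 genes were called lower and 0.561% higher; the median log2 ratio was -0.09 over these genes and -0.05 over all. Atf3 was 1.75-fold (1.61 to 1.91) lower at 13.8 CPM in IHG offspring against 24.3 CPM in control offspring, and Ppp1r15a was 1.59-fold (1.52 to 1.66) lower at 51.9 against 82.6 CPM. Over the whole class no gene was called higher: Atf5 was 1.21-fold (1.18 to 1.24) and Cebpb 1.39-fold above control offspring, and Nupr1 (22.7 CPM in IHG offspring and 23.6 CPM in control offspring) had intervals that overlapped. In cluster 2, which these libraries share most, neither gene was called lower, Atf3 was 29.5 CPM in IHG offspring and 26.7 CPM in control offspring, the opposite direction, and Cebpb passed the rule as higher at 25.004 and 16.1 CPM. Immediate early genes moved with Atf3 and Ppp1r15a in these libraries: 5 of 16 measured were lower in IHG offspring, led by Npas4 (80.7 CPM in IHG offspring and 257 CPM in control offspring), and none higher, and their part in the result was not tested. None of the measured genes of amino acid synthesis (6), amino acid transport (3), tRNA charging (12), eIF2α control (10), the ATF6 and IRE1 arms (25) or the mitochondrial unfolded protein response (4) was called in either direction. Of 16 other targets of ATF4 and CHOP 2 were lower, among them Ddit4 (63.0 CPM in IHG offspring and 116 CPM in control offspring), and of 13 heat shock genes 1 was lower.

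Several of the 9 genes were lower in IHG offspring in the other endocrine classes and in endothelial-like cells as well. Of 6 genes measured in alpha-like cells 3 were lower (background 7.13%), of 4 in delta-like cells all 4 (5.76%), of 6 in PP-like cells 4 (9.84%) and of 7 in endothelial-like cells 5 (21.8%), with none called higher. The share of all genes called higher was 1.22% in alpha-like, 4.81% in delta-like, 4.03% in PP-like and 9.93% in endothelial-like cells. Atf3 was lower in each: 169 CPM in IHG offspring against 548 CPM in control offspring alpha-like cells (3.23-fold), 43.6 against 132 CPM in delta-like cells (3.01-fold), 142 against 506 CPM in PP-like cells (3.57-fold) and 145 against 679 CPM in endothelial-like cells (4.67-fold). Ppp1r15a was lower in each of these classes by 1.67-fold to 3.35-fold. Immediate early genes were lower in the same libraries, 19 of 20 measured in alpha-like and 18 of 23 in endothelial-like cells, as were heat shock genes, 13 of 13 and 11 of 14, and their part in the result was not tested.

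The alpha-like cells of the offspring libraries fell into different clusters: 44.6% of IHG offspring alpha-like cells lay in cluster 4, where Atf3 was 362 CPM, and 54.2% in cluster 10, where it was 12.5 CPM. In control offspring 96.9% lay in cluster 4, at 553 CPM. Delta-like cells divided likewise, with 34.5% of IHG offspring cells in cluster 7 (Atf3 at 120 CPM) and 65.5% in cluster 9 (5.26 CPM), against 93.2% of control offspring cells in cluster 7 (135 CPM). Within cluster 7 Atf3 was thus no longer past the rule. Nor was Ppp1r15a, at 154 CPM in IHG offspring and 180 CPM in control offspring cells of cluster 7, and 149 and 219 CPM in alpha-like cells of cluster 4. Endothelial-like cells lay to 73.0% in cluster 6 and 22.8% in cluster 17 in IHG offspring, and to 48.6% in cluster 6 and 48.0% in cluster 14 in control offspring. Within cluster 6 Atf3 was 172 CPM in IHG offspring and 486 CPM in control offspring cells and Ppp1r15a 215 and 478 CPM, smaller differences than over the class, and Ddit3 was no longer past the rule at 12.6 and 14.1 CPM. All PP-like cells lay in 1 cluster, and Atf3 differed 3.57-fold there. Proliferating cells had 2 of 5 measured genes lower in IHG offspring, again Atf3 (2.10-fold, 1.31 to 3.44) and Ppp1r15a (2.03-fold, 1.57 to 2.62), where 5.50% of genes were called lower and 9.32% higher.

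Between the Cre libraries the genes were higher in other classes too, although which of them were called changed by class. In alpha-like cells 5 of 6 measured genes were higher (background 4.72%), in delta-like cells 5 of 5 (8.88%), in PP-like cells 6 of 7 (8.00%) and in endothelial-like cells 5 of 7 (14.6%). None was called lower there, against 38.3% of all genes in alpha-like, 17.8% in delta-like, 26.5% in PP-like and 30.2% in endothelial-like cells. Most alpha-like cells lay in cluster 4 in the Cre-positive library (95.7%) and in cluster 12 in the Cre-negative library (82.8%), and most delta-like cells in cluster 7 (97.0%) and cluster 9 (93.5%). Endothelial cells do not arise from the Pdx1 lineage, and what the differences in endothelial-like cells come from was not tested. There Atf4 was at 911 CPM in Cre-positive and 332 CPM in Cre-negative cells (2.74-fold, 2.37 to 3.19) and Atf3 at 493 and 196 CPM (2.51-fold, 2.08 to 3.07), from 1746 and 211 cells. Macrophage-like cells, from 682 Cre-positive and 59 Cre-negative cells, had 1 gene higher (Ddit3, on 52 and 1 UMIs) and 2 lower of 6 measured, where 18.1% of all genes were called higher and 34.5% lower.

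Outside beta-like cells Atf3 differed most in delta-like cells, at 241 CPM in Cre-positive and 21.6 CPM in Cre-negative cells (11.1-fold, 8.67 to 14.6), and least among endocrine classes in alpha-like cells, at 410 and 210 CPM (1.96-fold, 1.84 to 2.08). Ppp1r15a was 2.02-fold (1.79 to 2.27) higher in delta-like cells and 1.12-fold (1.04 to 1.20) lower in alpha-like cells, below the rule. Ddit3 was higher in alpha-like, delta-like and PP-like cells by 2.15-fold, 3.61-fold and 2.96-fold. For the genes at low level, Nupr1 had 74 UMIs in Cre-positive and 0 in Cre-negative alpha-like cells, at least 12.6-fold against a floor of 3 UMIs, and 103 and 0 UMIs in delta-like cells, at least 17.7-fold.

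Insulin transcripts were counted in the other classes too, and their level differed between libraries. As a share of the insulin level of beta-like cells of the same library they were 9.84% in Cre-positive and 1.34% in Cre-negative alpha-like cells, 24.0% and 1.68% in delta-like cells, and 21.2% and 1.86% in PP-like cells. If the 9 genes were carried along with insulin, that amount would be 91.6% of the Atf5 level and 94.7% of the Nupr1 level of Cre-positive alpha-like cells, but 2.24% of Atf3 and 10.0% of Atf4. In delta-like cells it would be 118% for Atf5 and 78.7% for Nupr1, and in PP-like cells 124% for Atf5 and 138% for Nupr1. With this amount subtracted, an alternative chosen after seeing the data, 4 of the 5 genes called higher in alpha-like cells, 4 of 5 in delta-like and 4 of 6 in PP-like cells still differed 1.5-fold, and in endothelial-like cells, where insulin was 2.65% of its beta-like level in Cre-positive and 2.48% in Cre-negative cells, all 5 did. Atf5 is the gene that changed most: its alpha-like ratio became 3.54-fold lower, and no positive value was left in Cre-positive delta-like and PP-like cells. The CPM totals were not reduced by the RNA taken out, which lowers net levels most where insulin is high. A call lost here may be lost for that reason alone. The loss of the PP-like Atf4 call, at net levels of 280 CPM in Cre-positive and 204 CPM in Cre-negative cells, therefore cannot be read as carried RNA.

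Between the offspring libraries insulin was 6.86% of its beta-like level in IHG offspring and 45.1% in control offspring delta-like cells, 8.86% and 21.7% in PP-like, 0.921% and 8.93% in alpha-like, and 34.3% and 9.83% in endothelial-like cells. With the carried amount subtracted, 2 of the 4 delta-like calls stayed past 1.5-fold, Atf3 and Ppp1r15a, while Atf4 no longer differed by the rule and Atf5 had no positive value left in control offspring. In PP-like cells 3 of 4 calls stayed, without Ddit3, and in alpha-like cells 3 of 3 and in endothelial-like cells 5 of 5 did. Here too the CPM totals were not reduced by the RNA taken out. The loss of the delta-like Atf4 call and the PP-like Ddit3 call therefore cannot be read as carried RNA.

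The amino acid lists, mostly higher in Cre-positive beta-like cells, did not show the same counts in other classes. In alpha-like cells no aminoacyl-tRNA synthetase was higher and 5 of 12 were lower, 1 of 7 genes of amino acid synthesis was higher, and of 4 transporters 1 was higher and 1 lower. Of all genes in alpha-like cells 4.72% were called higher and 38.3% lower, so the 5 lower synthetases are near that share. In delta-like cells 2 of 13 synthetases, 3 of 5 synthesis genes and 2 of 4 transporters were higher and none lower, where 8.88% of all genes were called higher and 17.8% lower. In endothelial-like cells 2 of 14 synthetases were higher and 1 lower, 1 of 4 synthesis genes was higher, and 4 of 5 transporters were higher. Of all genes in endothelial-like cells 14.6% were called higher and 30.2% lower, so the 2 higher synthetases are near that share.

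Heat shock genes were higher in Cre-positive alpha-like cells as well (11 of 14 measured), but 14 of 21 immediate early genes were lower and 3 higher there, with summed levels of 9571 CPM in Cre-positive and 15626 CPM in Cre-negative cells. The shares of all genes in alpha-like cells were 38.3% lower and 4.72% higher. Atf3, which belongs to both programmes, was higher in these cells while most other immediate early genes were lower. In delta-like cells 12 of 20 immediate early and 13 of 14 heat shock genes were higher and none lower, against 8.88% of all genes higher and 17.8% lower. In endothelial-like cells 6 of 22 immediate early genes were higher and 7 lower, beside 13 of 14 heat shock genes higher. The shares of all genes there were 14.6% higher and 30.2% lower, so the 7 lower genes are near that share. Their part in the levels of the 9 genes was not tested.

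**Figure D5:**
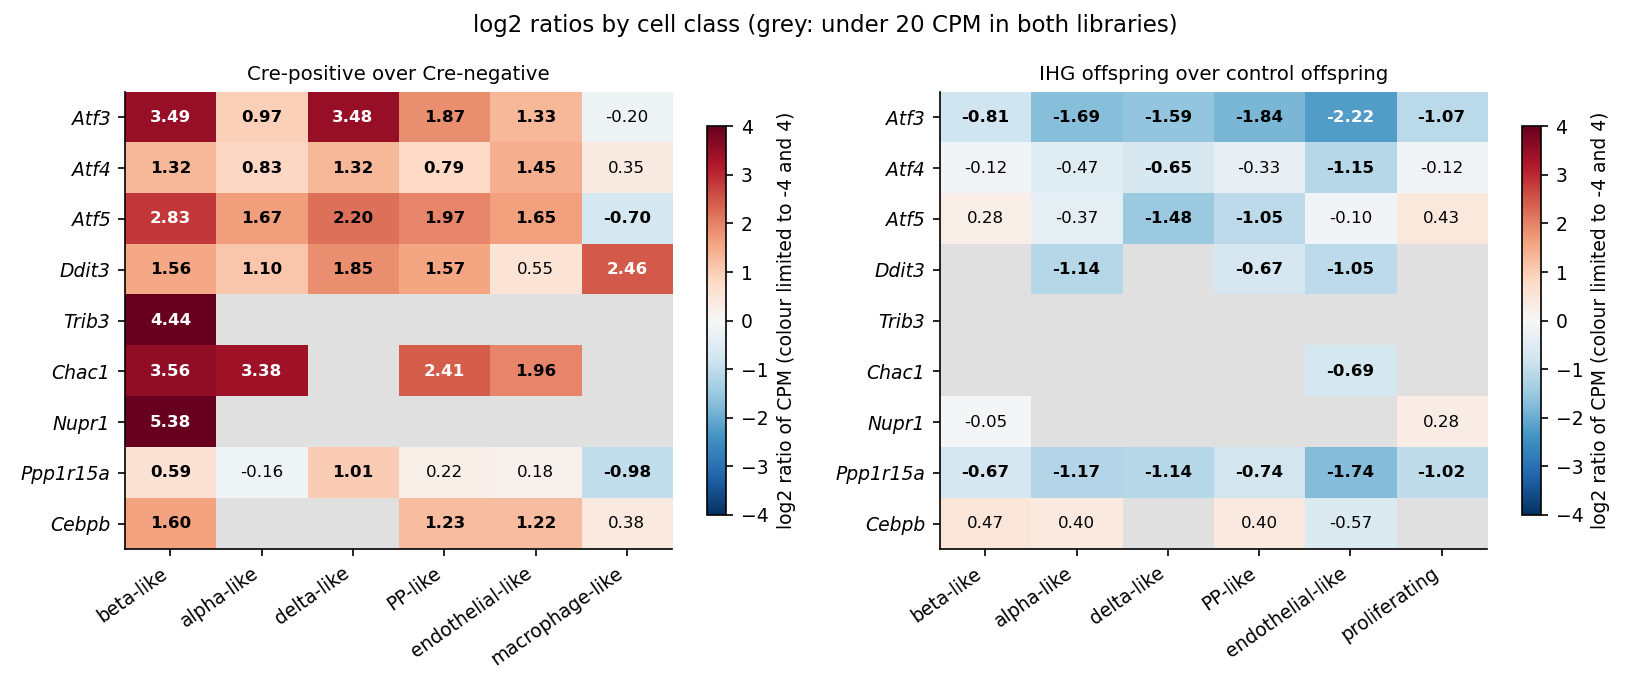
Log2 ratios of the 9 genes by cell class, for Cre-positive over Cre-negative and for IHG offspring over control offspring. In the second pair Atf3 and Ppp1r15a lie below 0 in the endocrine classes and endothelial-like cells.

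Across classes the 9 genes did not share one pattern. Only classes with at least 50 cells in a library were ranked. Among those left out were pericyte-like cells of the Cre-negative (29 cells) and control offspring (26 cells) libraries and macrophage-like cells of control offspring (49 cells). Proliferating cells of the Cre-positive (35 cells) and Cre-negative (45 cells) libraries were left out too. A class named highest or lowest is so only among those ranked. In both Cre libraries Atf5 had its highest level in the beta-like class, which came second to proliferating cells in IHG offspring (245 CPM in proliferating and 217 CPM in beta-like cells) and control offspring (182 and 179 CPM). Atf3 was lowest in beta-like cells of every library but the Cre-positive one, where neuron-like cells were lower at 49.4 CPM. Ppp1r15a was lowest in beta-like cells of the Cre-negative and control offspring libraries, while neuron-like cells were lower in the Cre-positive library (61.0 CPM) and proliferating cells in IHG offspring (49.0 CPM). Chac1 was highest in beta-like cells in all but control offspring. The Chac1 intervals of beta-like and endothelial-like cells overlapped in the Cre-negative and IHG offspring libraries, and Chac1 was highest in endothelial-like cells of control offspring. Cebpb was highest in pericyte-like cells of the Cre-positive library (418 CPM), in macrophage-like cells of the Cre-negative (201 CPM) and IHG offspring (275 CPM) libraries, and in endothelial-like cells of control offspring (102 CPM). Atf4 was highest in endothelial-like cells except in IHG offspring, where pericyte-like cells led with 369 CPM. Over the 28 sums of a class in a library with at least 50 cells, Atf3 and Ppp1r15a had r = 0.87 between them on log2 levels, Atf5 and Nupr1 0.82 and Trib3 and Chac1 0.76, while Atf3 and Atf5 had -0.31. These are descriptions across sums that share libraries and depth. The genes whose pattern over the 28 sums was most like the mean of the 9 were Ppp1r15b (r = 0.86), Coq10b (0.84), Fosl2 (0.83), Mafk (0.82), Maff (0.82), Zbtb10 (0.82), Ubald1 (0.81), Sde2 (0.81), Smndc1 (0.80) and Rassf1 (0.80).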

How the data were processed

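Single islet cells of 4 libraries were measured after collagenase isolation, culture and trypsin dissociation, with a microwell 3′ kit, per the labels' protocols. The deposited matrices hold whole-number UMI counts per gene and barcode, made by the authors with Cell Ranger on mm10, with Seurat also named, per the submitters' processing notes; their versions and the strand setting are not stated there. No barcode had fewer than 500 UMIs.

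From these counts, barcodes were kept if they had 500 genes or more and no more than 20% of UMIs from the mitochondrial genome. Scrublet's own threshold marked 1.67% of Cre-positive, 0.101% of Cre-negative, 4.39% of IHG offspring and 0% of control offspring barcodes, so the top 6% of scores in each library were removed instead. Cells were clustered together (scanpy 1.11.5, 2000 variable genes, 30 components, 15 neighbours, Leiden resolution 1) and clusters were named from listed markers, at least 3 of them detected; differences in class shares may come from these rebuilt names. UMIs were summed per class and library and given as CPM with exact Poisson intervals, ratios with exact conditional binomial intervals and shares with exact binomial intervals (Clopper-Pearson, scipy 1.17.1), at 95%. With 1 library per group no test was made. Pairs of libraries shared 45 to 197 cell barcodes, at most 1.84% of the cells of either. For shares, cells were thinned to 2000 UMIs, which left out 110 Cre-positive, 107 Cre-negative, 62 IHG offspring and 238 control offspring beta-like cells. Calculations were checked on simulated counts.

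The 9 genes and the 9 other gene lists were chosen with earlier results of these data known. Named from each other list were up to 4 genes past the 1.5-fold rule with the largest ratios in beta-like cells, and the 10 genes whose log2(CPM + 5) followed the mean of the 9 genes most closely. Alternatives covered doublets, clustering, the mitochondrial limit, mixed-hormone cells, thinning, scaling, the CPM minimum and the fold rule.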

Additional observations from a re-analysis of the deposited data

Results flagged for a closer look

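Atf5 differed in opposite directions between classes of the Cre libraries: it was 7.12-fold (6.78 to 7.48) higher in beta-like cells of Cre-positive over Cre-negative mice, on 12821 and 1892 UMIs, and 1.63-fold (0.491 to 4.25) lower in macrophage-like cells, on 29 and 5 UMIs. The macrophage-like interval includes no difference, and the difference between the classes was not tested.

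Ppp1r15a was 2.02-fold (1.79 to 2.27) higher in delta-like cells of Cre-positive over Cre-negative mice, on 1368 and 350 UMIs, and 1.98-fold (1.57 to 2.47) lower in macrophage-like cells, on 453 and 95 UMIs. Both intervals cover counting error only, and the difference between the classes was not tested.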

How the results depend on the processing

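All 9 genes were called higher in Cre-positive beta-like cells under every alternative run except 2, each of which left 8: cells of the shared cluster only, and a 2-fold rule. Over the alternatives the Atf5 ratio ran from 1.70 to 8.29 and the Nupr1 ratio from 16.05 to 114. The 2 genes called lower in IHG offspring beta-like cells became 1 with cells thinned to 2000 UMIs, 0 within the shared cluster, where 1 gene (Cebpb) was called higher, and 0 with a 2-fold rule. Over all classes, restriction to the shared cluster moved 23 called ratios beyond their counting intervals, turned 2 and left 22 within them; median-of-ratios scaling moved 14 and left 39, and subtracting the insulin-linked amount moved 11, turned 2 and left 24. Directions turned in these cases, and the cause was not tested: the Atf3 ratio of IHG over control offspring beta-like cells was 1.11 in the shared cluster, the Atf4 ratio in delta-like cells of that pair was 1.04 in the shared cluster and 1.01 less the amount carried with insulin, and between the Cre libraries the Atf5 ratio was 0.283 in alpha-like cells less that amount and 1.61 in macrophage-like cells with no doublets removed (94 and 5 UMIs). The insulin subtraction did not reduce the CPM totals, which shifts the net ratios against the library with more insulin. In delta-like cells that is the control offspring library, so the Atf4 value of 1.01 cannot be read as a change of direction. At 5000 UMIs per cell the shares of beta-like cells with 2 or more genes were 89.2% in Cre-positive, 31.3% in Cre-negative, 53.3% in IHG offspring and 58.9% in control offspring. No paired analysis was possible because each group has 1 library, and no library could be left out for the same reason. Depth limits Trib3, Chac1 and Nupr1 outside beta-like cells, and all genes in Cre-negative macrophage-like cells.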
